A study of Mus musculus with 2 samples.

Results

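Plet1 (placenta-expressed transcript 1, ENSMUSG00000032068) is 1 of the 27998 genes counted in 2 single-cell RNASeq libraries of mouse ileal epithelium. It was chosen by its measured values in these libraries, namely UMIs in WT cells and near absence of UMIs in Tipe0-/- cells, so its levels and its fall between the genotypes are given as descriptions with no test. The libraries came from C57BL/6 mice aged 8 weeks, 1 from wild-type animals (WT) and 1 from animals lacking TNFAIP8, also called TIPE0 (Tipe0-/-). The cells of 3 healthy mice were pooled for each genotype before sequencing. Both groups are described as C57BL/6. Whether they were littermates, of 1 substrain or housed together is not given in the sources used here. Each captured mRNA was marked with a unique molecular identifier (UMI), so PCR copies of 1 molecule were counted once. With 1 library per genotype, mouse-to-mouse variation could not be measured, and all intervals are 95% intervals of counting error only. They are exact for UMI sums (Poisson), shares of cells (Clopper-Pearson) and ratios between the genotypes (binomial). For folds between WT cells with and without Plet1 they are approximate. Intervals of UMI sums, ratios and folds take UMIs as independent, so they do not cover the spread between cells.

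PLET1 is a glycoprotein of the cell surface. It is best known from the placenta, where it marks trophoblast progenitors, and it is also found on epithelial progenitors of the thymus and the hair follicle. In the colon it has been described as a gene of the epithelial response to interleukin-17, a cytokine that also raises antimicrobial genes in the gut lining. The ileal epithelium renews itself from Lgr5+ stem cells in the crypts. Their progeny divide and become absorptive enterocytes, which move up the villus and change their genes on the way, or secretory cells (goblet, Paneth, tuft and enteroendocrine cells).

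Plet1 lies on the + strand of chromosome 9, from 50494525 to 50505482 in GRCm38 (mm10, the build of the counts). The GENCODE annotation gives it 2 protein-coding transcripts of 4 exons each, with 1689 and 739 exonic bases. They end at 50505482 and 50501979. Since the kit counted 3' ends, UMIs of both ends enter the same sum and could not be separated here. The RefSeq sequence upstream of its start is shown as a description of the gene. Whether it has a part in the gap between the genotypes was not tested. These 250 bases of the + strand, chr9:50494275-50494524 in GRCm38.p6, are printed 5′ to 3′ up to the base before the start, with capitals marking a match to the TATA box motif TATAAA.
Plet1 upstream sequence: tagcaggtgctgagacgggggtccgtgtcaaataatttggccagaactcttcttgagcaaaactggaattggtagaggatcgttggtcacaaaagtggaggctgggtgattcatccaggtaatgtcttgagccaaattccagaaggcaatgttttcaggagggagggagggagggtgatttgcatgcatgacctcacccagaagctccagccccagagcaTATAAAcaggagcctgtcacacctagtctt
The match begins 30 bases before the start, on the + strand. TATAAA occurred on either strand in 12.4% of the 32851 upstream sequences of the same length. Neither TTCNNNGAA, the palindrome bound by STAT factors (7.02% of sequences), nor AGATAA, which is read by factors of the GATA family (9.99%), occurred in this window. No file used here measured binding or chromatin at this sequence.

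The WT library held 3402 cells with a median of 7760 UMIs, and the Tipe0-/- library 2006 cells with a median of 7307.5 UMIs. Every cell had at least 3247 UMIs. Of all cell barcodes, 9 occurred in both libraries, and none of these belonged to a Tipe0-/- cell with Plet1. Tnfaip8, the targeted gene, had 372 UMIs in WT and 57 in Tipe0-/- cells, 9.76 (8.79 to 10.8) against 2.39 (1.81 to 3.09) UMIs per 1000000 UMIs of the library (CPM). Whether the counted 3' end lies in the deleted part is not given in the sources used here. The cells were grouped into 13 clusters without Plet1 and the other genes of the genotype comparison, and clusters were named as "like" a cell type from their marker genes. The 13 lymphocyte marker genes summed to 133 CPM in the WT and 32.3 CPM in the Tipe0-/- library, with UMIs of all 13 in both, so the samples labelled as enterocytes also held immune cells.

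The 3402 WT cells together contained 1709 Plet1 UMIs, a level of 44.8 CPM (42.7 to 47.0). The 2006 Tipe0-/- cells contained 16, a level of 0.670 CPM (0.383 to 1.09). The Tipe0-/- level was 67.0-fold lower (41.1 to 117). On the log2 scale, with 0.5 added to both sums and Tipe0-/- divided by WT, this ratio was -6.02 (-6.88 to -5.36). The intervals of the levels did not overlap, but Plet1 was chosen for this gap, so this is no test of it. For the 11665 genes whose UMIs summed to 50 or more over the libraries the median ratio was 0.15 (log2), and Plet1 had the lowest of all. The ratios of Cd160, Cd8b1, Ccl4 and Thy1, which are genes of lymphocytes, lay between -4.02 and -3.51 on the log2 scale, beside the lower lymphocyte marker sum given above. Low ratios were also found for Pla2g4c, a cytosolic phospholipase A2, at -3.81 (-3.98 to -3.65) and for Retnlb, a goblet cell protein induced by microbes and worms, at -3.74 (-3.85 to -3.63). Lgals1, which encodes galectin-1, was at -3.55 (-4.18 to -3.03). It was among the leading genes of the lymphocyte-like cluster, which had 92 WT and 17 Tipe0-/- cells. In the lymphocyte-like cluster Plet1 had 4 UMIs in WT and 0 in Tipe0-/- cells, so this cluster held 0.234% of the WT Plet1 UMIs.

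**Figure D1:**
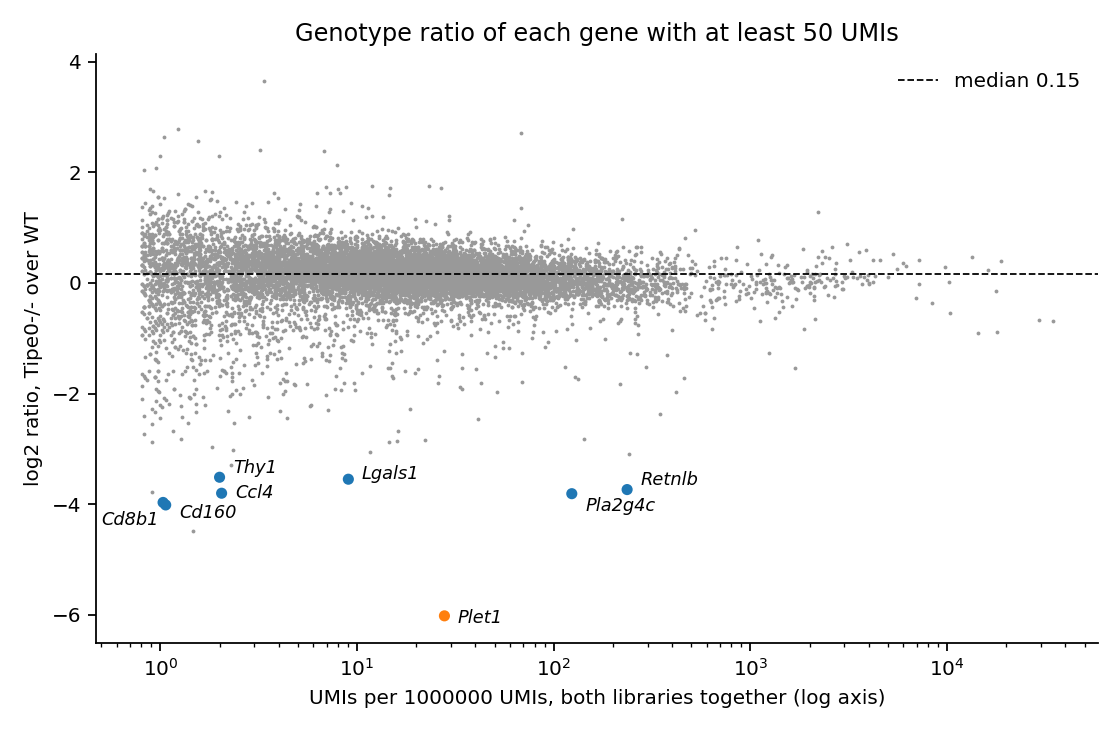
Each point is 1 of the 11665 genes, with its level in both libraries together on a log axis (UMIs per 1000000 UMIs) against the log2 ratio of Tipe0-/- over WT, and a dashed line at the median of 0.15. Plet1, in orange, lies at -6.02, under every other gene, and the genes named in the text are marked in blue.

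In the WT library 718 of 3402 cells had a Plet1 UMI, and in the Tipe0-/- library 16 of 2006 cells did. Of the WT cells, 397 had a single UMI and 90 had 5 or more, up to 23. All 16 Tipe0-/- cells had a single UMI, and they were spread over 7 clusters. The WT cells with 5 or more UMIs were 2.65% of the library and held 41.4% of its Plet1 UMIs. Since deeper cells are more likely to show a UMI (the median depth was 11560.5 UMIs in WT cells with Plet1 and 7000 in those without), shares were also taken after each cell had been thinned to 3000 UMIs. The WT share was then 9.82% (8.84 to 10.9), or 334 cells. The Tipe0-/- share was 0.299% (0.110 to 0.650), or 6 cells. Unthinned, these shares were 21.1% (19.7 to 22.5) and 0.798% (0.457 to 1.29). The Tipe0-/- share lay below that of WT Paneth-like cells, the WT class with the lowest share, in which it was 1.77% (0.578 to 4.09), although the intervals overlapped. The share that free RNA gives in droplets was not estimated in either library.

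**Figure D2:**
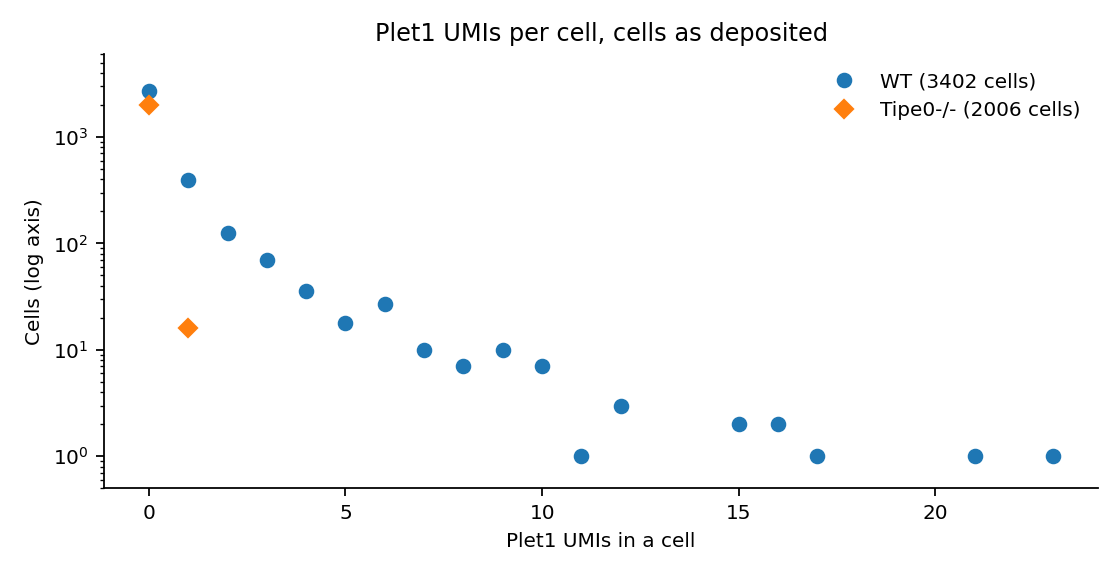
The plot gives the number of cells (log axis) with each number of Plet1 UMIs, in the 3402 WT cells (blue circles) and the 2006 Tipe0-/- cells (orange diamonds), as deposited. WT cells extend to 23 UMIs, and no Tipe0-/- cell has more than 1.

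Within the WT library Plet1 was highest in enterocyte-like cells, which held 60.5% of its UMIs. The level was 172 CPM (153 to 193) in cluster 8, led by Fabp6 and Slc51b, the bile acid binding protein and a bile acid export subunit of ileal enterocytes. It was 139 CPM (127 to 152) in cluster 2, led by the apolipoprotein gene Apoa1 and Tmigd1. It was 80.4 CPM (70.5 to 91.3) in cluster 5, led by Apol10a and Slc40a1, the iron exporter ferroportin, which rested on 5 of the 17 enterocyte markers. The levels of clusters 8, 2 and 5 differed from each other by more than counting error, and together they gave 125 CPM (118 to 133). In Tipe0-/- cells of the same clusters there were 0, 3 and 3 UMIs. That is 1.57 CPM (0.578 to 3.43) for the class and a 79.5-fold lower level (36.4 to 217). In cluster 8 the Tipe0-/- level was at least 41.5-fold lower, taking 3 UMIs as the limit that a count of 0 allows and the WT level as measured. The exact interval of the log2 ratio, which also covers the counting error of the WT level, reached up to -5.07 there.

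The enterocyte-like clusters were followed by a goblet-like one. Goblet cells secrete mucins, and cluster 11, led by Zg16 and Clca1, had 70.5 CPM (58.4 to 84.4), which did not differ from cluster 5 by more than counting error. The second cluster led by Zg16, cluster 7, had 16.8 CPM (10.3 to 25.9). Cluster 7 was the shallower of the 2, with a median of 5155.5 UMIs against 13386 in cluster 11. Enterocyte markers summed to 17579 CPM in WT cells of cluster 11, against 18445 CPM in cluster 5 and 1725 CPM in cluster 7. Whether cluster 11 held doublets or goblet cells mixed with enterocyte transcripts was not tested, so its Plet1 level is not read as one of goblet cells alone. Cluster 0, goblet-like but led by Agr2 and Creb3l1 and holding Spdef, a regulator of the secretory lineage, had 21.8 CPM (18.5 to 25.7). An unnamed cluster led by gasdermin C genes and Akr1c19 (cluster 9) had 48.7 CPM (36.2 to 64.2), which differed by more than counting error from the clusters on either side. 

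The remaining clusters were lower than cluster 9. Plet1 was at 27.2 CPM (22.9 to 32.1) in cycling-like cells, at 24.9 CPM (19.2 to 31.9) in the stem-like cluster led by Lgr5, at 24.6 CPM (18.4 to 32.2) in tuft-like cells and at 18.9 CPM (13.6 to 25.6) in an unnamed cluster led by DNA replication genes. With each cell thinned to 3000 UMIs the tuft-like level was 8.44 CPM, near the 5.91 CPM of thinned Paneth-like cells, whereas cycling-like and stem-like cells were then at 30.5 and 26.1 CPM. From cycling-like cells downwards, no cluster differed from the next in the order by more than counting error. Lymphocyte-like cells had 8.30 CPM (2.26 to 21.3) and Paneth-like cells, the defensin-secreting cells of the crypt base, had 5.52 CPM (3.89 to 7.61), the lowest level. The lymphocyte-like level rested on 4 UMIs and on how the cells were classed, since it was 27.4 CPM with 2000 variable genes and 45.3 CPM with cells classed by their own markers. WT cells of this cluster had 2061 CPM of enteroendocrine and 2777 CPM of cycling markers beside 6513 CPM of lymphocyte markers. Its level is therefore not read as one of lymphocytes alone. Paneth-like cells were also the deepest, with a median of 20981.5 UMIs per cell. After thinning, 20.1% (17.6 to 22.8) of enterocyte-like, 7.71% (5.33 to 10.7) of cycling-like, 6.86% (4.30 to 10.3) of stem-like and 6.80% (5.10 to 8.84) of goblet-like cells had a Plet1 UMI, against 1.77% in Paneth-like and 3.26% (0.678 to 9.24) in lymphocyte-like cells. The first 4 of these intervals lay above that of the Paneth-like share, but the part of free RNA from enterocyte-like cells in them was not tested. By cluster, the goblet-like share was 7.89% (5.52 to 10.8) in cluster 0, 10.6% (5.75 to 17.4) in cluster 11 and 2.04% (0.559 to 5.14) in cluster 7. The interval of cluster 7 overlapped that of the Paneth-like share. The tuft-like share, 2.53% (0.694 to 6.35), lay within the interval of the Paneth-like share although the CPM of tuft-like cells without thinning was higher, so no order is read from it.

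The levels in Tipe0-/- cells lay between 0 and 2.21 CPM in every cluster, and 6 of the 13 clusters had no Plet1 UMI. The intervals of the genotypes overlapped only in the lymphocyte-like cluster, which had 17 Tipe0-/- cells. This too is a description, since Plet1 was chosen on this contrast. The level was 76.5-fold lower (25.9 to 373) in goblet-like, 31.1-fold lower (8.25 to 262) in stem-like and 19.8-fold lower (7.58 to 73.8) in cycling-like cells of the Tipe0-/- library. These folds rested on 3, 2 and 4 Tipe0-/- UMIs, and their intervals overlapped, so no order is read from them. The goblet-like fold includes cluster 11, which is not read as goblet cells alone. With both libraries set to the same makeup of clusters the log2 ratio was -5.90, close to that of the libraries as found.

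**Figure D3:**
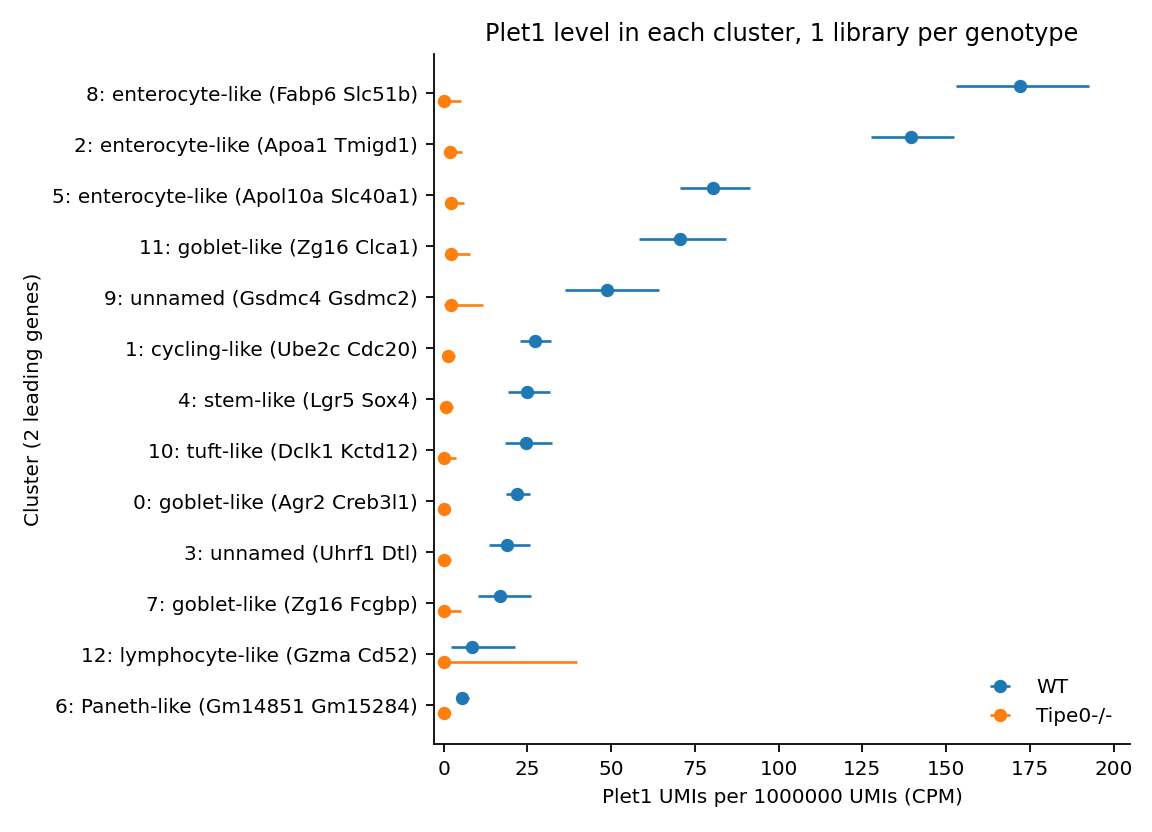
Points give the Plet1 level of each cluster in CPM, in WT (blue) and Tipe0-/- cells (orange), with exact 95% Poisson intervals that cover counting error only. WT levels run from 5.52 CPM in the Paneth-like to 172 CPM in the Fabp6 enterocyte-like cluster, and no Tipe0-/- level exceeds 2.21 CPM.

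Plet1 was unevenly spread among cells of 1 cluster, in enterocyte-like and in some other clusters. In thinned WT cells the variance of its UMIs was 2.51 times the mean in cluster 8, 1.97 times in cluster 5 and 1.85 times in cluster 2, whereas the median over all genes with at least 20 UMIs was 1.02 to 1.04 in these clusters, and 1 is the value of random sampling. This ratio was above that of 97.8%, 98.4% and 96.8% of genes, respectively. In cluster 8, 69.1% of cells had no Plet1 UMI, where even sampling at the same mean would leave 53.4% without one. The ratio was 1.28 in the cycling-like cluster and 1.25 in the stem-like cluster, above that of 96.8% and 95.5% of genes there, and in the goblet-like cluster 0 it was 0.976, with 92.1% of cells without a UMI against 92.2% for even sampling. In the goblet-like clusters 7 and 11 it was 1.97 and 1.45, on 6 and 17 UMIs. Of the 90 WT cells with 5 or more UMIs, 72 were enterocyte-like and 9 goblet-like, 7 of the latter in cluster 11. Few of these 90 cells carried immune transcripts: 1.11% had at least 2 UMIs of myeloid markers, against 2.63% of the other WT cells, and 8.89% had at least 2 of lymphocyte markers, against 9.24%.

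The genes that accompanied Plet1 were compared between thinned WT cells with and without a Plet1 UMI of the same cluster, in the 9 clusters with at least 10 positive cells (318 positive and 2356 negative cells). Of 6820 genes with at least 100 UMIs in these cells, 215 (3.15%) were higher by at least 0.5 on the log2 scale and 552 (8.09%) lower by at least 0.5, and the median was -0.04. Reg3b and Reg3g alone made up 8.48% and 4.52% of the UMIs of positive cells, against 7.10% and 3.17% expected, which leaves fewer UMIs for the other genes. With both left out of the totals the counts were 286 higher and 464 lower. Without thinning, which keeps more UMIs per cell, they were 80 and 225 of 10008 genes.

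Lrg1, a secreted glycoprotein of the acute-phase response, had the highest fold. It had 67 UMIs in Plet1-positive cells where 19.2 were expected, a log2 fold of 1.78 (1.34 to 2.26). It was found in 49 of the positive cells, was higher in 7 of 9 clusters and was 1.65 without thinning. Fut2, the fucosyltransferase that decorates the surface of epithelial cells, had 45 UMIs against 22.2 expected and a log2 fold of 1.0 (0.48 to 1.54), or 0.53 without thinning. The other 8 of the 10 highest folds rested on 17 to 38 UMIs in positive cells and did not persist without thinning. For Tubg1, Cers5, Sos1, 6030458C11Rik, Pcnt, Dll1, Ndufaf7 and Rsl24d1 the log2 fold was 0.97 to 1.26 thinned and -0.19 to 0.19 unthinned. In thinned cells with at least 2 Plet1 UMIs, a part of the same positive cells, it was 0.34 to 1.77.

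The lowest folds were of hormone genes that a few cells held in large amounts. Sst had 0 UMIs in positive cells and 414 UMIs in 11 negative cells, up to 247 in 1 cell, with 80.2 expected. Gcg, Nts and Pyy, which encode the other gut hormones glucagon precursor, neurotensin and peptide YY, had 0, 2 and 8 UMIs where 23.7, 31.4 and 58.5 were expected, and these were likewise held by at most 22 negative cells each. In the enterocyte-like clusters alone Nts and Pyy had the opposite direction, at 1.47 and 1.73 on the log2 scale. Fabp5, a fatty acid binding protein, had 2 UMIs against 11.8 expected, a log2 fold of -2.29 (-5.62 to -0.67) that was -0.29 without thinning.

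Among genes with more UMIs, Plet1-positive cells had more of the antimicrobial lectin Reg3g, by 0.51 (0.49 to 0.53) on the log2 scale, in 9 of 9 clusters (0.44 to 0.71). Reg3a, of the same family, was higher by 0.77 (0.50 to 1.03) in 9 of 9 clusters, and Dmbt1, a secreted scavenger protein that binds bacteria, by 0.38 (0.30 to 0.47) in 9 of 9. Lypd8, a surface protein that keeps flagellated bacteria away from the epithelium, was higher by 0.33 (0.28 to 0.38), in 6 of 9 clusters. The opposite held for Pla2g4c, at -1.36 (-1.60 to -1.14) and below 0 in 9 of 9 clusters (-2.95 to -0.62), and for gasdermin C4 (Gsdmc4), a pore-forming protein, at -0.81 (-1.02 to -0.61) and above 0 in 1 of 9 clusters. Rbp2 (cellular retinol binding) was at -1.11 (-1.43 to -0.81), the fatty acid carrier Fabp2 at -0.84 and Apoa1 at -0.53 (-0.60 to -0.46), each above 0 in 3 of 9 clusters. Rbp2 and Fabp2 were below 0 in all 3 enterocyte-like clusters. Apoa1 was not, with -0.63 in cluster 2, which held most of its UMIs, and 1.34 and 0.51 in clusters 5 and 8. The apolipoprotein gene Apoa4 was at -0.20 (-0.54 to 0.13), but at -1.42 without thinning and -1.90 in cells with at least 2 Plet1 UMIs. In enterocyte-like WT cells Apoa4 was at 2.27 (2.06 to 2.49) per 10000 thinned UMIs without Plet1. With 5 or more Plet1 UMIs it was at 0.0926 (0.0112 to 0.334), on 2 UMIs. In the 3 enterocyte-like clusters the correlation across cells of Plet1 with Reg3g was 0.29 to 0.42 and that with Pla2g4c -0.36 to -0.31, over 188 to 429 cells of 1 library at equal depth. Across cells pooled without regard to cluster, Apoa1 and Fabp2 did not keep their direction (0.49 and 0.0050).

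The levels of these genes differed stepwise with the number of Plet1 UMIs in enterocyte-like WT cells, of which 626 had none, 126 had 1, 117 had 2 to 4 and 72 had 5 or more in the deposited counts. Each level is a share of the thinned UMIs, per 10000. Reg3g was at 394, 499, 580 and 734 in this order, Lypd8 at 49.0, 61.3, 67.3 and 80.4, and Lrg1 at 0.122, 0.317, 0.627 and 1.06. In the same order, over the 3 clusters together, Apoa1 was at 58.0, 40.4, 35.8 and 23.9, although cells with Plet1 had less of it in cluster 2 only, as given above. Fabp2 was at 41.2, 30.6, 21.8 and 6.16 and Rbp2 at 4.44, 2.62, 1.94 and 0.185. Slc6a19, the neutral amino acid transporter of the brush border, went from 3.59 in cells without Plet1 to 0.833 in those with 5 or more UMIs. For all of these genes the intervals of the first and the last step did not overlap. These are the same WT cells as in the folds above, and Fabp2 and Slc6a19 were named after their values were seen. The steps are therefore a description and no separate evidence. Pla2g4c went from 7.97 (7.57 to 8.39) to 1.2 (0.786 to 1.76). The MHC class II chain Cd74 stayed between 21.2 and 23.0, with overlapping intervals. The 4 groups differed in depth, with medians of 5741, 6903.5, 9628 and 13117.5 UMIs before thinning, and the order of the steps was the same for each of these genes other than Cd74 when the groups were set to 1 makeup of the 3 clusters.

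Enterocyte-like cells of the Tipe0-/- library, 464 in number, had levels outside the range of the WT steps for several of these genes. Reg3g was at 245 (242 to 247), Dmbt1 at 7.31, Lypd8 at 29.96 and Lrg1 at 0.0144 per 10000, each under WT cells without Plet1. The Lrg1 level rested on 2 UMIs (0.00174 to 0.0519). Apoa1 at 67.1 (65.8 to 68.5) and Fabp2 at 69.1 (67.7 to 70.5) were above WT cells without Plet1. Pla2g4c at 0.431 (0.329 to 0.555) lay under the WT cells with the most Plet1, although it was lower in WT cells with Plet1 than in those without. Rbp2 at 2.98 and Reg3a at 1.81 lay within the WT range.

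**Figure D4:**
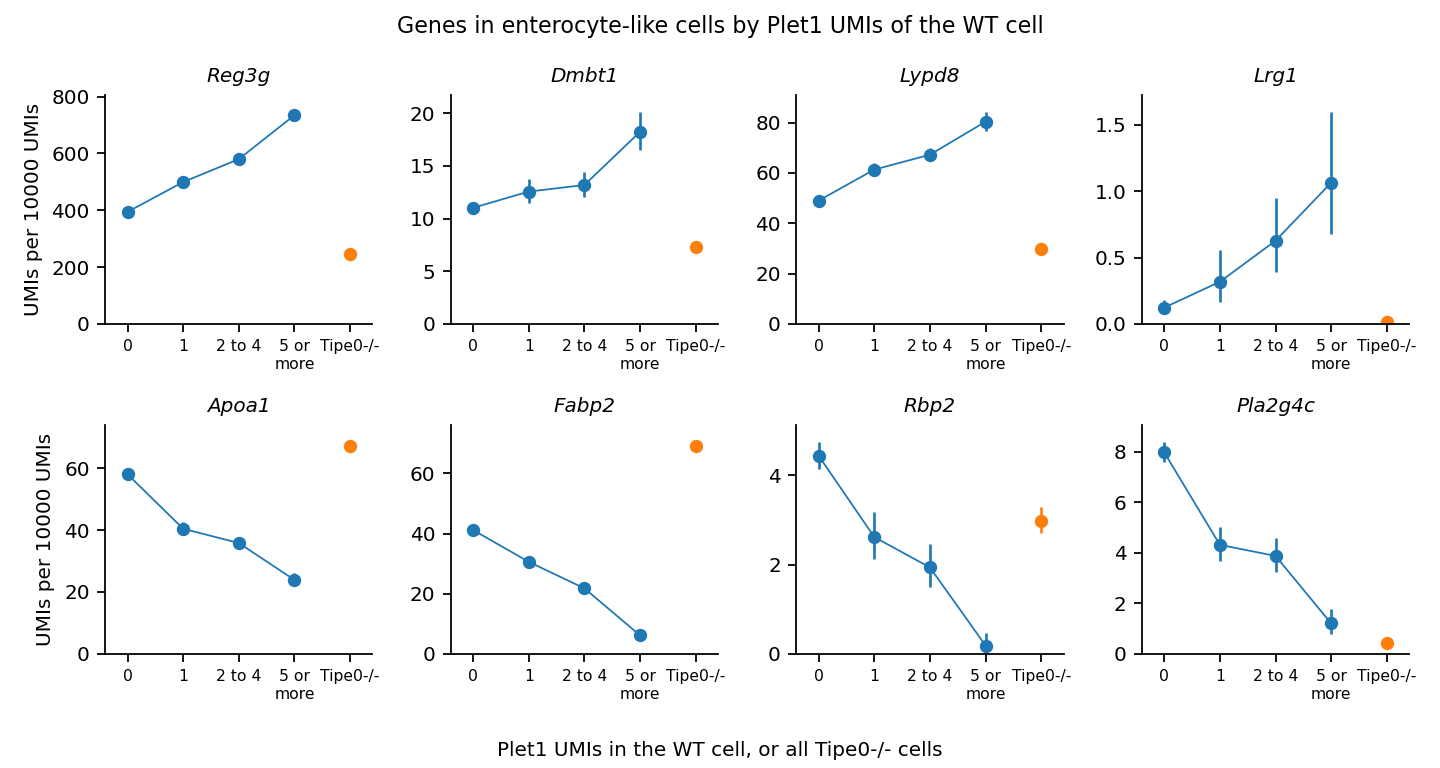
Each panel gives the level of 1 gene in UMIs per 10000 thinned UMIs in enterocyte-like WT cells with 0, 1, 2 to 4 and 5 or more Plet1 UMIs (blue) and in all 464 Tipe0-/- enterocyte-like cells (orange), with exact 95% Poisson intervals of counting error. Reg3g, Dmbt1, Lypd8 and Lrg1 go up with Plet1 over the 3 clusters together and Fabp2, Rbp2, Pla2g4c and Apoa1 (the last lower with Plet1 in cluster 2 only) go down, whereas the Tipe0-/- level lies under all WT groups for Pla2g4c and the first 4 genes, above them for Apoa1 and Fabp2, and within their range for Rbp2.

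Gene lists around Plet1 were counted in both comparisons. All of these lists were chosen with earlier results of these data known, so their counts between the libraries are no independent evidence. Between the libraries, 284 of 11665 genes (2.43%) had a log2 ratio of -1 or less and 178 (1.53%) of 1 or more. Of 19 measured genes of the interleukin-17 receptor and its response, 4 were at -1 or less and none at 1 or more, with a median of -0.76. The response genes Saa1, Saa3 and Duoxa2 were at -2.37, -1.69 and -1.07, but Pigr and Ccl20 of the same list were at -0.11 and 0.25. The receptor subunits Il17ra and Il17rc were at -0.12 and -0.41. Beside Plet1 in WT cells, where 3.15% of all genes were higher by at least 0.5 and 8.09% lower, 1 of 12 genes of this list was higher, which was Reg3g, none was lower, and the median was 0.13. Il17rc was at -0.17 (-0.49 to 0.14) and Saa1 at 0.19 (0.11 to 0.27) there. The chemokine Ccl20, a member with too few UMIs for this count, had 16 UMIs in 12 positive cells where 2.49 were expected, a log2 fold of 2.46 (1.42 to 4.04). Other members with too few UMIs were mixed, with Lcn2 at 1.47 (0.07 to 3.11), Saa3 at 0.88, Il17re at 0.39, Nox1 at 0.00 and Il17ra at -0.60. Of these others, only the interval of Lcn2 left out 0.

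Of 21 measured genes of microbe-induced defence, 12 were at -1 or less between the libraries, against 2.43% of all genes, with a median of -1.22. The list shares Saa1, Saa2, Duox2, Duoxa2, Nos2, Reg3b and Reg3g with the interleukin-17 list, so the counts of these lists overlap. Part of this list, with members shared by the interleukin-17 list, is known from the genotype comparison of these same libraries. The direction of either list is therefore no independent evidence. Beside Plet1, against the shares of 3.15% and 8.09% over all genes, the list was split, with 3 of 18 genes higher (Reg3a, Reg3g and Fut2) and 6 lower (Pla2g4c, Gsdmc2, Gsdmc3, Gsdmc4, Ang4 and Reg4), and its median was -0.08. Without thinning Reg4 turned to 0.51 and Ang4 was at -0.10, while Reg3a stayed at 0.85 and Gsdmc2 at -0.61. Retnlb, at -3.74 between the libraries, was at -0.03 (-0.35 to 0.27) in WT cells with Plet1. Sprr2a3, a small proline-rich protein, was at -3.09 and -0.31.

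MHC class II presentation had 6 of 8 genes at -1 or less between the libraries, against 2.43% of all genes, and a median of -1.28. Beside Plet1, however, 0 of 7 genes were higher or lower by 0.5, against 3.15% and 8.09% of all genes. The median there was 0.00 and H2-Aa was at 0.06 (-0.07 to 0.19). Among small surface glycoproteins of the Ly6 kind and similar, 3 of 8 were at -1 or less, including Ly6a (Sca-1) at -2.82, which was at 0.31 (0.15 to 0.46) beside Plet1, and 0 of 6 passed 0.5 there. Of the genes of fetal-like and regenerative epithelium, 1 of 11 was at -1 or less, again Ly6a, and 0 of 4 passed 0.5 in WT cells with Plet1.

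The lists of villus zones, which follow enterocytes from the villus base to the tip, had medians between the libraries of -0.16 for the base, -0.05 for the middle and 0.03 for the tip. Beside Plet1 their medians were 0.11, -0.14 and -0.20 in this order. Reg3g was the 1 of 9 base genes higher by 0.5, against 3.15% of all genes. It is the same gene already counted as higher in the interleukin-17 and microbe-induced lists, with which the base list shares further members. Rbp2 and Slc15a1 (peptide uptake) were the 2 of 8 middle genes lower by 0.5, against 8.09% of all genes. Apoa1 was the 1 of 9 tip genes lower by 0.5, a share near the 8.09% of all genes. Without thinning 3 of these 9 tip genes were lower by 0.5, against 225 of 10008 over all genes. Other tip genes were at -0.37 (-0.53 to -0.22) for Tmigd1 and -0.21 (-0.34 to -0.09) for Krt20, a keratin of differentiated cells.

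The genes whose level over the 13 WT clusters was most like that of Plet1, by Pearson r of log2(CPM + 10), were Fahd1 (0.985), Naip1 (0.983), Sema6d (0.983), Tmem117 (0.982), Slc9a2 (0.977), Epha1 (0.976), Sec23a (0.975), Bche (0.974), Pla2g12b (0.973) and Slc1a1 (0.971). Naip1 is a cytosolic sensor of bacterial secretion systems, Slc9a2 a sodium-proton exchanger and Slc1a1 a glutamate transporter. Each was highest in cluster 2 or cluster 8. This likeness is loose, since 358 of 10086 genes reached an r of 0.9, and the list is not stable. Of the 10 genes, 1 was among the 10 highest with 19 clusters at resolution 1.2, where the r of Fahd1 was 0.83, and 3 were by Spearman rho. None of the 10 was lower by 1 or more on the log2 scale in Tipe0-/- cells. Over all genes this share was 2.43%, so a count of 0 in 10 genes lies near it. Their log2 ratios ran from -0.23 for Slc9a2 to 0.38 for Tmem117, apart from Bche, a butyrylcholinesterase, at 1.63. Slc9a2 had 45.0 CPM in WT, like Plet1, and 38.3 CPM in Tipe0-/- cells.

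The genes around Plet1 on chromosome 9 had ratios near the median of all genes. Of 15 genes annotated within 200 kb of it, Plet1 included, 13 were in the matrix, and 9 neighbours had at least 50 UMIs. Their log2 ratios ran from -0.24 for Timm8b to 0.39 for Dlat, with a median of 0.16, against 0.15 for all genes. Pts, an enzyme of tetrahydrobiopterin synthesis and the nearest of the 9, 16.1 kb away, had 47.2 CPM in WT and 52.3 CPM in Tipe0-/- cells. Bco2 was at 0.16, and Il18, the cytokine interleukin-18, was at -0.11 (-0.30 to 0.08) with 16.5 and 15.3 CPM. Sdhd, a subunit of mitochondrial complex II, was at -0.14, AU019823 at 0.36, Pih1d2 at 0.21 and Rpl10-ps3, protein-coding in this annotation, at 0.30. Tex12 had 4 UMIs in WT and 2 in Tipe0-/- cells, and Dixdc1 had 29 and 12. Plet1os, an antisense gene that overlaps Plet1 on the - strand, had 1 UMI in WT and 0 in Tipe0-/- cells. The strand setting of the counting is not given in the sources used here.

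**Figure D5:**
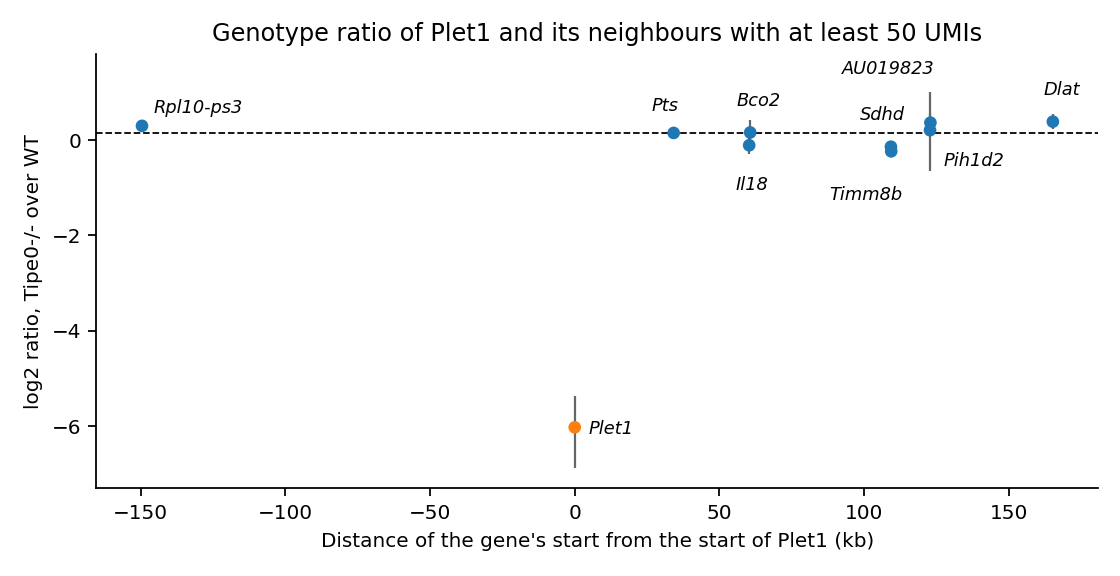
The log2 ratio of Tipe0-/- over WT is plotted against the distance in kb of each gene's start from that of Plet1, for Plet1 (orange) and the 9 neighbours with at least 50 UMIs (blue), with exact 95% intervals of counting error and a dashed line at the median of all genes. Plet1 lies at -6.02 and its neighbours between -0.24 and 0.39.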

How the data were processed

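The authors dissociated ileal epithelium, prepared libraries with the 10x Genomics Chromium 3' kit, ran Cell Ranger against mm10, and deposited raw UMI counts per gene and cell. The scaling of read depth across libraries named in their methods is not in these counts. The methods name DNase I with Dispase for digestion, the labels collagenase with dispase. The labels give no replicate libraries, so no test was run. Plet1 and the gene lists were chosen with earlier results of these data known.

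All deposited cells were kept. They were clustered with Seurat 5.3.0 (R 4.3.3) on 532 of 582 variable genes, 14 principal components and resolution 0.8, with the genes of the published genotype comparison, Plet1 among them, left out. A cluster took the name of the class with the highest mean marker score if at least 3 of its markers were found in 10% of its cells and at 1.5 times the share of other cells. Of the 13 clusters, 2 stayed unnamed. Scrublet (Scanpy 1.11.5) marked 15 WT and 3 Tipe0-/- cells as doublets, a share so low that the call is taken to have failed, and the 5% of cells with the highest scores were left out in an alternative. Counts were summed per cluster and library and given as CPM. Thinning drew 3000 UMIs per cell without replacement (numpy 2.4.6, Python 3.11.15). Expected UMIs beside Plet1 are those of negative cells of the same cluster, scaled to the number of positive cells. Genotype ratios and folds were tested on simulated data with known changes. The simulated counts were Poisson without further spread between cells, so this does not cover genes as unevenly spread as Plet1.

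Genes were named by rule: the 10 highest and 5 lowest folds beside Plet1, the 10 highest r over clusters, the 10 lowest genotype ratios (some of them not reported here), genes within 200 kb, up to 4 members of each list, and Tnfaip8. Further genes, Dmbt1, Fabp2 and Slc6a19 among them, were named after their values were seen.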

Additional observations from a re-analysis of the deposited data

How the results depend on the processing

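No paired analysis was possible because each genotype has 1 library, and for the same reason no library could be left out. The log2 ratio of Plet1 stayed between -6.18 and -5.51 under 9 other scalings and choices of cells and was the lowest of all genes under each filter and added constant tried. Without the 10 cells with most Plet1 UMIs of each library it was -7.22, since those cells held 62.5% of the Tipe0-/- UMIs. The share of cells with Plet1, WT before Tipe0-/-, was 21.1% and 0.798% without thinning, and 2.82% and 0% with at least 2 UMIs. The enterocyte-like level in WT was 150.0 CPM at resolution 0.4, 147 with 2000 variable genes, 157 with the genotype genes kept in and 138 with cells classed by their own markers, and it was the highest class under each. The order below it was not stable. Goblet-like cells came second in the main setting and at resolution 1.2, and unnamed clusters did at resolution 0.4, with 2000 variable genes and with the genotype genes kept in. In the main setting 119 of the 287 WT UMIs of the goblet-like class were of cluster 11, which is not read as goblet cells alone. Goblet-like clusters 0 and 7 had 21.8 and 16.8 CPM, under the 28.5 CPM of the unnamed clusters together. With cells classed by their own markers, myeloid-like (67.9 CPM), enteroendocrine-like and lymphocyte-like cells ranked above goblet-like ones. The main clustering had no enteroendocrine-like class. The counts of genes higher and lower beside Plet1 were 804 and 1428 without regard to cluster, 80 and 225 without thinning, and 68 and 171 in the 3 enterocyte-like clusters only, which leave 3053 genes. With at least 2 UMIs 118 were higher and 407 lower, of 2781 genes. Directions reversed for Tubg1 (-0.19) and Dll1 (-0.019) without thinning, for Apoa1 (0.49) and Fabp2 (0.0050) without regard to cluster, for Nts (1.47) and Pyy (1.73) in the enterocyte-like clusters, and for Pyy with at least 2 (0.48) or 5 UMIs (0.64). The cause was not tested. The restriction to enterocyte-like clusters, the cells with at least 5 UMIs, the totals without Reg3b and Reg3g, and the removal of the deepest cells were chosen after seeing the data. Depth limits single cells, as most WT cells with Plet1 had 1 UMI, and the counts say nothing of variation between mice.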
